A study of Mus musculus with 57 samples.

Results

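The core circadian clock genes measured here were Arntl (also named Bmal1), Clock, Per2, Per3, Cry1, Cry2, Nr1d1, Nr1d2, Dbp and Tef. These 10 genes were chosen by name out of the 51456 gene identifiers of the table. All 10 were found, and all 10 had a mean of at least 10 normalized estimated counts per library, so that each was among the 16659 genes tested. The tissue was prefrontal cortex, taken at postnatal day 25 from mice of the strain C57BL/6N, females and males, and gave 57 libraries. At Shank2, the gene of a scaffold protein found at glutamatergic synapses, the mice were either heterozygous (HT) or wild type (WT). Pups were exposed by maternal milk, over 3 weeks (days 3 to 24), to fluoxetine, which blocks serotonin reuptake, to the mood stabilizer lithium, or to vehicle. The 6 arms of genotype and drug held 10 libraries each in HT vehicle, HT fluoxetine, HT lithium and WT fluoxetine, 9 in WT lithium and 8 in WT vehicle. The labels name no allele of Shank2, no litter, no light schedule and no hour of dissection. Arm, litter and hour of dissection therefore cannot be told apart. The labels number the libraries of a group without saying that each came from a separate mouse, so the p-values measure the spread between these libraries.

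The circadian clock is a transcription feedback loop that most cells carry. CLOCK and ARNTL (BMAL1) proteins bind E-box sequences as a pair and activate the Per and Cry genes, whose proteins return to the nucleus and repress that pair. A further loop runs through Nr1d1 and Nr1d2, which encode the receptors REV-ERB alpha and beta. These are activated through E-boxes and repress Arntl, Clock and Cry1 at ROR elements, which activating ROR receptors share. Dbp and Tef encode PAR bZIP factors, outputs of the loop that bind D-boxes, for example in the Per genes. In tissues with a running clock, Arntl RNA peaks in opposite phase to Nr1d1 and Dbp RNA, while Cry1 RNA peaks later than Per and Nr1d1 RNA. In the cerebral cortex the genes cycle under the influence of the suprachiasmatic nucleus, the pacemaker of the hypothalamus, and of glucocorticoid hormone. Per2 is also induced acutely through glucocorticoid and cAMP elements.

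The 4 promoter stretches printed here hold the letters of such elements, in members whose covariation between libraries is described below. Each is the 250 bases before the start of transcription in RefSeq (GRCm38.p6), 5′ to 3′ on the strand of the gene, with the matched element in capitals. The Per3 stretch, chr4:151044666-151044915 on the minus strand, holds 2 D-boxes of the letters TTATGTAA, which begin at positions -205 and -158 from the start. The Cry1 stretch, chr10:85185055-85185304 on the minus strand, holds the E-box CACGTG at position -60. The Tef stretch, chr15:81802423-81802672 on the plus strand, lies before the upstream of 2 starts and holds an E-box at position -127. The Nr1d2 stretch, chr14:18239107-18239356 on the minus strand, holds the ROR core AGGTCA at position -77.
Per3: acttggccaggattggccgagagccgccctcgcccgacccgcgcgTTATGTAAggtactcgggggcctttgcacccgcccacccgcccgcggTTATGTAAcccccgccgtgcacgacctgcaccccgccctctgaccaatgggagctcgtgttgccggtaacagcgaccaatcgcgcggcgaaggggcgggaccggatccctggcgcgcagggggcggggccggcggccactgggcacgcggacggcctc
Cry1: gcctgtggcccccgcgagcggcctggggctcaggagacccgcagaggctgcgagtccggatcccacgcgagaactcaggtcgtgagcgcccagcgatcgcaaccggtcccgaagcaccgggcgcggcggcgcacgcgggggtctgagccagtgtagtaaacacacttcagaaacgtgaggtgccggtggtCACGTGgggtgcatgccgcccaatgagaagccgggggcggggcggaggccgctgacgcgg
Tef: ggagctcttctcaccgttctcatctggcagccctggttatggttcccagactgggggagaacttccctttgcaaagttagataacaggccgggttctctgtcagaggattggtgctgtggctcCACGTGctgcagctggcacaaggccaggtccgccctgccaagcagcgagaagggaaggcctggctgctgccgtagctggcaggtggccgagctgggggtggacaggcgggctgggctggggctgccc
Nr1d2: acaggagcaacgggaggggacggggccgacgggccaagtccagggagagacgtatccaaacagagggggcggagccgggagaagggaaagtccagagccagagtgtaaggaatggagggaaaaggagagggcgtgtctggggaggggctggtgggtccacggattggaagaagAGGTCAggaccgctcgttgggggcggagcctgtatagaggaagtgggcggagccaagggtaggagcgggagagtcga
A window was given for 9 of the 10 members. Per2 had none. The windows, of 250 bases before to 50 after the start, were searched on both strands for the E-box CACGTG, the D-boxes TTATGTAA, TTACATAA and TTACGTAA, the ROR core AGGTCA and the cAMP element TGACGTCA. None of these motifs holds another. Over all 32851 windows of mouse genes, 7.15% held the E-box, 1.06% a D-box, 16.3% the ROR core and 1.79% the cAMP element. Beside the matches shown, the other start of Tef had an E-box at position -138, 1 of 3 starts of Clock had a ROR core at -119, and 1 of 2 starts of Arntl had one at position 32, after the start. The windows of Cry2, Nr1d1 and Dbp held none of the letters searched. A match is a description of the letters and does not show binding.

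The deposited library totals were nearly equal, from 30.4 to 33.2 M normalized counts (M, mega), because the values were already scaled. Shank2 separated the labels, with 3877 to 5006 normalized counts in the 30 HT libraries and 6762 to 11791 in the 27 WT libraries (log2 difference -1.17, SE 0.04, limma with Benjamini-Hochberg adjusted p = 6.52e-32). Cortical neuron markers were high in every library, for example Slc17a7 at 44452 or more. Markers of neighbouring tissue varied between libraries. Striatal genes summed to 2569 to 18662 normalized counts and olfactory bulb genes to 322 to 9400. The arm medians of the olfactory bulb sum ran from 614 in HT lithium to 2094 in WT fluoxetine. Their part in the differences between arms was not tested. Avp and Six3, markers of the suprachiasmatic nucleus, were at 0 in 22 and 14 libraries and had medians of 1.0 and 1.34, with Six3 reaching 313 in 1 library. Vip, which cortical interneurons also express, had a median of 1305. Of the same marker list, Lhx1 was at 0 in 5 libraries with a median of 1.42. Rgs16 went the other way, with a median of 221 and a lowest level of 143. In this whole tissue, fewer cells of a type and less RNA per cell cannot be told apart. A pair of libraries stood apart from the rest: the median correlation with the others was 0.968 for the WT vehicle male numbered 2 and 0.970 for the HT fluoxetine male numbered 3, against a median of 0.985 over all libraries. The WT vehicle female numbered 1 was the next lowest, at 0.977. Results that rest on these libraries are given with and without them.

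Over all treatments, 1 of the 10 members passed the test between genotypes, Arntl, which was higher in HT. This comparison called 3.74% of the 16659 genes tested. Clock rose with lithium in WT mice, where 8.53% of the genes were called. With both genotypes pooled, Clock and Per2 rose with lithium, where 13.3% were called. A test for any difference among the 6 arms called Arntl, Clock and Dbp, and 14.1% of all genes.

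In the other comparisons limma called 0 members after adjustment. The share of all genes called was 0.762% for HT against WT under vehicle, 0.222% under fluoxetine and 0.114% under lithium. For fluoxetine against vehicle it was 0.33% in HT, 0.84% in WT and 4.75% with the genotypes pooled, and for lithium against vehicle in HT 0.888%. At an unadjusted p under 0.05, HT against WT held 4 of the 10 members and 14.8% of all genes under vehicle. It held 3 members and 10.5% of all genes under fluoxetine, and 1 member and 7.75% under lithium. For fluoxetine against vehicle it was 3 members and 14.6% of all genes in HT, 2 members and 15.2% in WT, and 3 members and 20.2% with the genotypes pooled. For lithium in HT it was 1 member and 12.8% of all genes. The tests of a difference in the drug effect between genotypes called 0% of all genes for fluoxetine and for lithium. Each had 2 members under 0.05 unadjusted, beside 7.71% of all genes for fluoxetine and 7.31% for lithium. Between females and males over all arms 0.108% of all genes were called, and 0 members and 5.36% of all genes had an unadjusted p under 0.05. With 10 members, counts this small are read no further. The median size of the log2 difference over the 10 members was 0.05 between genotypes and 0.03 with lithium, against 0.05 and 0.07 over all genes tested. With fluoxetine it was 0.08 against 0.06. There 9 of the 10 members were above 0, beside a median log2 difference of 0.0055 over all genes tested. The share of all genes above 0 is not given here. Members covary between libraries, as described below, so these are not separate signs. The fluoxetine and lithium comparisons share the vehicle libraries.

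**Figure D1:**
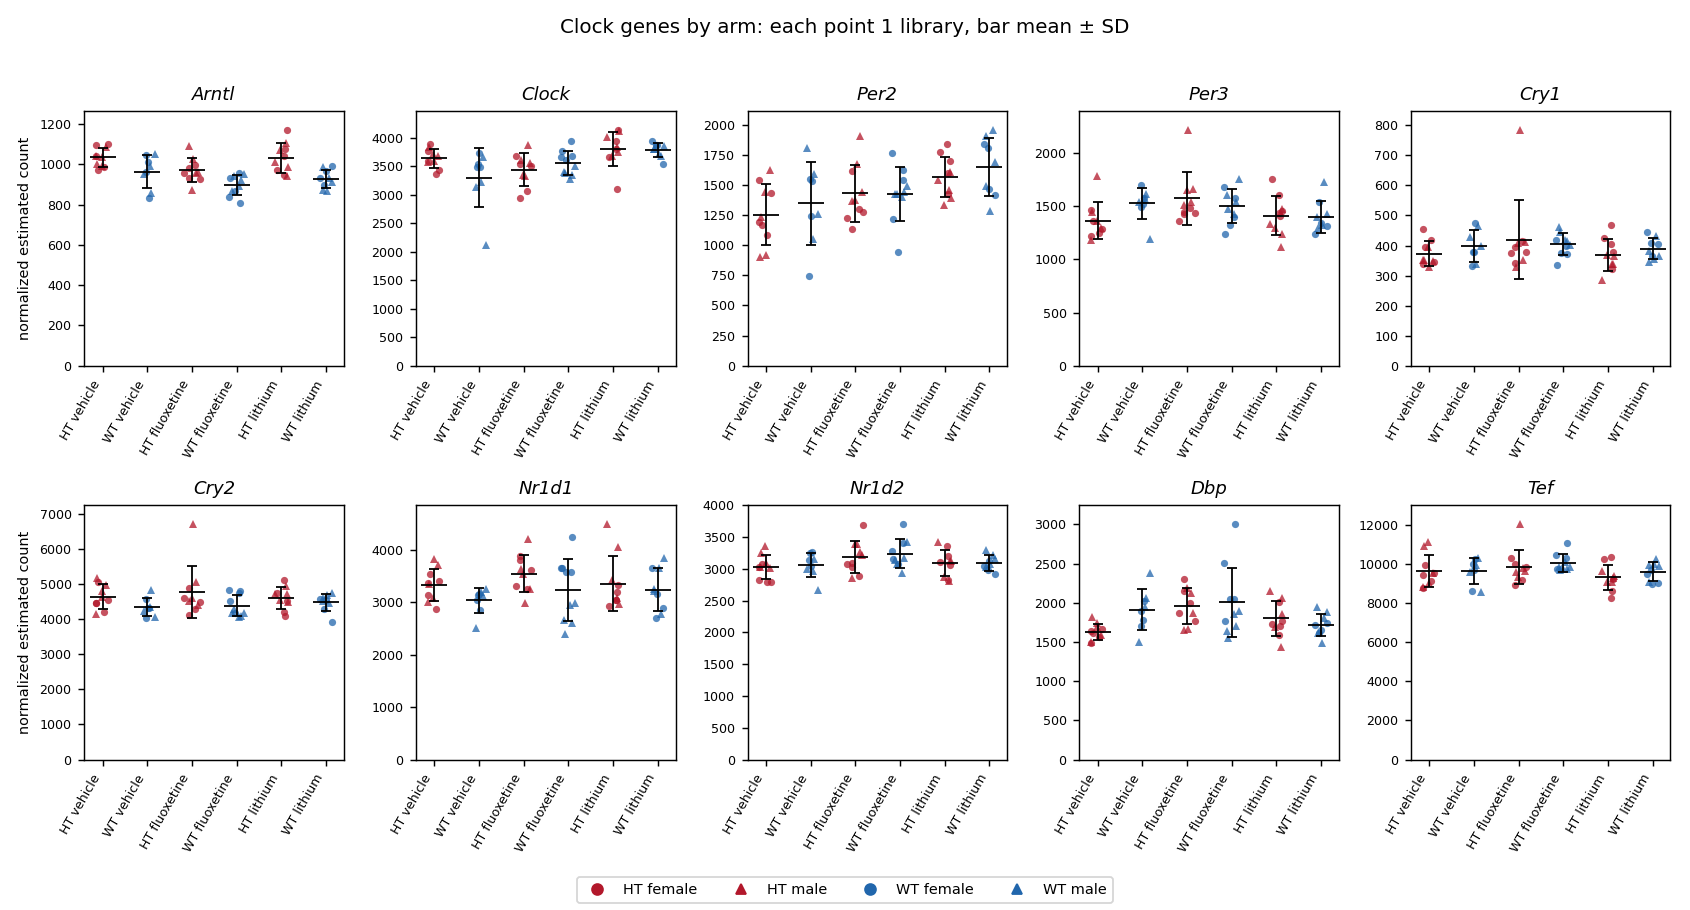
Normalized estimated counts of the 10 clock genes (y axes, starting at 0) in the 6 arms of genotype and drug (x axes); each point is 1 library, red for HT and blue for WT, circles for females and triangles for males, and bars are means ± SD. Arntl sits higher in HT than in WT within each drug, Per2 is highest in the lithium arms, and single libraries stand apart in WT vehicle for Clock (2128) and in HT fluoxetine for Cry1 (785).

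Arntl, the activator whose loss alone stops the clock, lies on chromosome 7 from 113207465 to 113314126 (GRCm38, plus strand). Its lowest, median and highest levels were 971, 1037 and 1099 normalized counts in HT vehicle and 832, 975 and 1053 in WT vehicle. Under fluoxetine they were 870, 960 and 1092 in HT and 809, 907 and 956 in WT. Under lithium they were 944, 1025 and 1171 in HT and 869, 930 and 990 in WT. The median of HT was above that of WT under each treatment, and the ranges of the genotypes overlapped in all 3. Over all treatments the mean was 1013 ± 66.9 (SD, n = 30) in HT and 927 ± 63.8 (n = 27) in WT. The log2 difference was 0.12 (SE 0.03, 95% interval 0.07 to 0.18, limma, adjusted p = 0.00290). HT was higher in all 6 comparisons within a drug and a sex, and the call held in each of the 57 fits that left out 1 library, with adjusted p from 0.00124 to 0.00614. Within single treatments the log2 difference was 0.11 under vehicle, 0.11 under fluoxetine and 0.15 under lithium, with adjusted p of 0.258, 0.316 and 0.262.

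Arntl shares its chromosome with Shank2, whose start lies 30.8 Mb away. Of the tested genes on chromosome 7, 4.14% were called between genotypes over all treatments, against 3.71% on the other chromosomes. Within 5 Mb of Arntl, 3 of 62 genes were called. The antisense gene Gm45355 overlaps Arntl, and because no source used here states whether counting used strand, reads of such partners cannot be told apart. Arntl was lower with fluoxetine than with vehicle in 4 of 4 comparisons within a genotype and a sex. That log2 difference was -0.10 (SE 0.03, adjusted p = 0.0683), which did not pass. It passed when 1 of 4 libraries was left out, the HT fluoxetine male numbered 1, the WT fluoxetine female numbered 5, the WT vehicle female numbered 4 or the WT vehicle male numbered 1, and over all libraries left out its adjusted p ran from 0.0263 to 0.136.

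Clock encodes the partner of ARNTL and lies on chromosome 5 from 76209868 to 76304792 (minus strand). Its lowest, median and highest levels were 2128, 3493 and 3739 normalized counts in WT vehicle and 3544, 3812 and 3955 in WT lithium. In HT they were 3369, 3644 and 3890 under vehicle and 3096, 3827 and 4145 under lithium. The fluoxetine arms spanned 2943 to 3876 in HT and 3274 to 3948 in WT. The WT lithium libraries lay in the upper part of the WT vehicle range and above it, and 1 vehicle library, the WT vehicle male numbered 2, was lower than all other libraries. The log2 difference of lithium from vehicle was 0.22 in WT (SE 0.06, limma, adjusted p = 0.0130). Without that library it was 0.14 with an adjusted p of 0.0563, and the call was lost, as it was with only the WT lithium and vehicle groups in the fit (adjusted p = 0.134). In HT the log2 difference was 0.06 (SE 0.05, adjusted p = 0.696).

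With both genotypes pooled, Clock was at 3801 ± 229 normalized counts (SD, n = 19) with lithium and 3494 ± 395 (n = 18) with vehicle. The log2 difference was 0.14 (SE 0.04, adjusted p = 0.0133), higher in 4 of 4 comparisons within a genotype and a sex. Without the WT vehicle male numbered 2 it was 0.10 (adjusted p = 0.0257). Clock also moved with a measure of transcript length. The length trend of a library is the rank correlation, over genes, between transcript length and how far its log2 value lies from the average of all other libraries. Its median was -0.041 in HT vehicle and -0.050 in WT vehicle, but 0.095 in HT lithium and 0.051 in WT lithium. Across the 57 libraries, with group means removed, Clock correlated with it at a Pearson r of 0.74 (permutation p = 1e-05, the smallest possible, adjusted p = 0.0012 over 120 relations) and a Spearman rho of 0.64 (permutation p = 4e-05, adjusted p = 0.0048). Without the 2 libraries of most extreme trend, r was 0.66. When the fit held this trend as a term, the lithium difference of Clock was 0.06 in WT (adjusted p = 0.541) and -0.01 pooled (adjusted p = 0.907). In the same fit Clock was lower with fluoxetine than with vehicle in HT by a log2 difference of -0.17 (adjusted p = 0.0290), from -0.09 (adjusted p = 0.47) without the term. The difference of the lithium effect between genotypes was -0.16 for Clock (SE 0.08, adjusted p = 0.677).

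**Figure D2:**
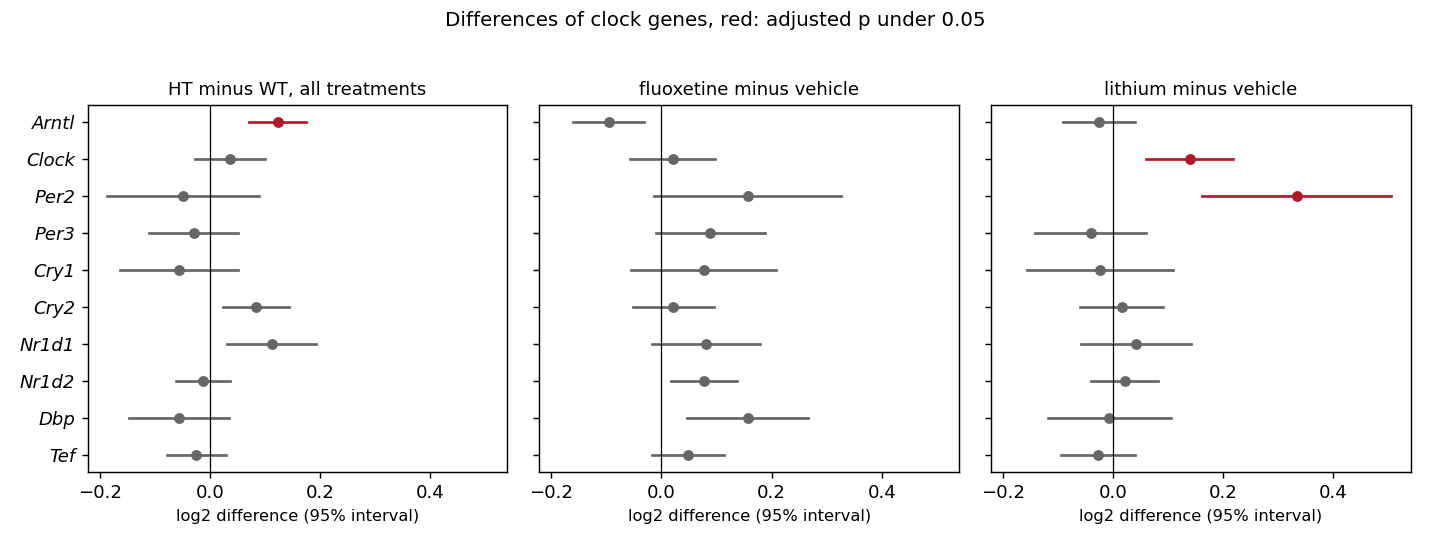
Log2 differences of the 10 clock genes (x axes) for HT minus WT over all treatments and for fluoxetine and lithium minus vehicle over both genotypes; points are limma estimates and lines 95% intervals, red where the adjusted p is under 0.05. Arntl at 0.12 in the genotype panel, and Clock at 0.14 and Per2 at 0.33 in the lithium panel, are the called values.

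Per2, a repressor of the loop and an acute response gene, lies on chromosome 1 from 91415982 to 91459324 (minus strand). Its lowest, median and highest levels were 900, 1214 and 1623 normalized counts in HT vehicle and 1335, 1571 and 1839 in HT lithium. In WT they were 743, 1395 and 1806 under vehicle and 1285, 1688 and 1958 under lithium. The fluoxetine arms had medians of 1370 in HT and 1433 in WT. No lithium library was below 1285, while the vehicle libraries reached down to 743, and the ranges overlapped above that. Pooled over genotypes, Per2 was at 1607 ± 205 (SD, n = 19) with lithium and 1295 ± 289 (n = 18) with vehicle. The log2 difference was 0.33 (SE 0.09, 95% interval 0.16 to 0.51, limma, adjusted p = 0.00696), higher in 4 of 4 comparisons within a genotype and a sex. It held in all 37 fits that left out 1 library, and was lowest, at 0.27 (adjusted p = 0.0151), without the WT vehicle female numbered 1, which had the level of 743. Within genotypes it was 0.34 in HT (adjusted p = 0.162) and 0.33 in WT (adjusted p = 0.0975). Without that library the WT value was 0.21 (adjusted p = 0.294). With all libraries, the difference between those was 0.02 (SE 0.17, adjusted p = 0.99). With the length trend as a term, the lithium difference of Per2 pooled over genotypes was 0.29 and did not pass (limma, adjusted p = 0.181). Per2 itself correlated weakly with that trend (r = 0.10).

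Per2 had the widest spread of the members, with a residual SD of 0.27 on the log2 scale, against a median of 0.17 over all genes tested. The immediate early genes, a measure of recent neuronal activity that includes Fos and Arc, had summed medians of 15102 normalized counts in HT vehicle, 20663 in HT lithium, 19740 in WT vehicle and 19847 in WT lithium. With group means removed, Per2 correlated with their sum at r = 0.15. It correlated with the summed olfactory bulb genes at r = -0.44 (adjusted permutation p = 0.119). With the summed cortical excitatory neuron genes r was 0.40 (adjusted permutation p = 0.188). The WT vehicle female numbered 1 had the highest olfactory bulb sum, 9400, and the lowest cortical excitatory neuron sum, 54129. The part of these genes in the Per2 difference was not tested. No promoter window was given for Per2, so its cAMP element was not searched for.

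The other repressors showed no called difference between arms. Per3, which lies on chromosome 4 from 151003652 to 151044665 (minus strand), had arm medians from 1327 in HT vehicle to 1556 in WT vehicle. Its log2 difference was 0.20 for fluoxetine against vehicle in HT (SE 0.07, adjusted p = 0.152) and -0.16 for HT against WT under vehicle (SE 0.07, adjusted p = 0.266). Cry1 on chromosome 10 had arm medians between 352 and 408 and Cry2 on chromosome 2 between 4239 and 4625. Cry2 was 0.08 higher in HT over all treatments on the log2 scale (SE 0.03, adjusted p = 0.103), in 5 of 6 comparisons within a drug and a sex. For Cry1 the same difference was -0.06 (SE 0.05, adjusted p = 0.599).

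Per3, Cry1, Cry2 and Tef shared 1 extreme library, the HT fluoxetine male numbered 3. Per3 was at 2220 normalized counts there and between 1513 and 1668 in the other males of that group. Cry1 was at 785 there against 329 to 413, Cry2 at 6712 against 4394 to 5050, and Tef at 12061 against 9320 to 9795. Its Nr1d1 level of 2982 was the lowest of the HT fluoxetine arm and its Dbp level of 1660 was near the low end of 1648.

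The REV-ERB receptor genes did not pass in any comparison of arms. Nr1d1, on chromosome 11 from 98767932 to 98775333 (minus strand), had medians of 3353, 3578 and 3139 normalized counts in HT under vehicle, fluoxetine and lithium. In WT they were 3130, 3280 and 3221. HT was higher in 5 of 6 comparisons within a drug and a sex, with a log2 difference of 0.11 over all treatments (SE 0.04, adjusted p = 0.10). Thra, which overlaps the end of Nr1d1 on the opposite strand, had a difference of 0.09 (SE 0.04, adjusted p = 0.140). Nr1d2, on chromosome 14, varied least of the members, with a residual SD of 0.09 and arm medians from 3032 to 3165. Its largest pooled difference was 0.08 for fluoxetine against vehicle (SE 0.03, adjusted p = 0.123).

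Of the output genes, Dbp differed among the 6 arms (F test in limma, adjusted p = 0.0316). It lies on chromosome 7 from 45705088 to 45710203 (plus strand). Its lowest, median and highest levels were 1482, 1627 and 1820 normalized counts in HT vehicle, 1648, 1934 and 2308 in HT fluoxetine and 1437, 1747 and 2146 in HT lithium. In WT they were 1499, 1920 and 2373 under vehicle, 1551, 1880 and 3008 under fluoxetine and 1484, 1715 and 1949 under lithium. HT vehicle had the lowest median of the 6 arms and HT fluoxetine the highest, and all ranges overlapped. The F test call was lost without either of 2 libraries, the HT vehicle female numbered 1 or the HT vehicle male numbered 5, with an adjusted p up to 0.0533, and with all genes above 0 in the fit (0.0604). No comparison of genotypes or of a drug with vehicle passed for Dbp. Fluoxetine against vehicle gave a log2 difference of 0.26 in HT (SE 0.08, adjusted p = 0.0907) and 0.05 in WT (SE 0.08, adjusted p = 0.814). The difference between these was 0.21 (SE 0.11, adjusted p = 0.677). For lithium the difference between genotypes was 0.29 (SE 0.11, adjusted p = 0.610). HT against WT gave -0.22 under vehicle (SE 0.08, adjusted p = 0.165) and 0.07 under lithium (SE 0.08, adjusted p = 0.890).

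In HT the fluoxetine difference of Dbp passed under 3 other settings, with library quality weights (adjusted p = 0.0249), with 2 principal components as terms (0.018) and with only the compared groups in the fit (0.0494). Sphk2, which overlaps Dbp on the opposite strand, had a log2 difference of -0.05 there (adjusted p = 0.697). Tef, on chromosome 15 from 81802421 to 81826863, had arm medians from 9248 to 9842, and its pooled differences lay between -0.03 and 0.05 on the log2 scale. None of them was called.

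Among 17 further clock genes, all tested, 4 were called for lithium against vehicle pooled over genotypes, where 13.3% of all genes were called. Rora, a receptor that activates through ROR elements, was at 1782 ± 159 normalized counts with lithium and 1569 ± 198 with vehicle, and rose by 0.19 on the log2 scale (SE 0.05, adjusted p = 0.00386). It rose with fluoxetine as well, by 0.18 (SE 0.05, adjusted p = 0.0146). Bhlhe40, an E-box repressor induced by activity, rose with lithium by 0.22 (SE 0.07, adjusted p = 0.0345). Nfil3, a D-box repressor that opposes Dbp and Tef, fell by 0.26 (SE 0.07, adjusted p = 0.00800). Npas2, which can stand in for Clock in the forebrain, fell by 0.14 (SE 0.05, adjusted p = 0.0497). In WT alone, Rora was higher with lithium (0.23, adjusted p = 0.0286) and Nfil3 lower (-0.31, adjusted p = 0.0453). For the 17 genes no fit with the length trend is given here. Between libraries, with group means removed, Rora correlated with Clock at r = 0.71. None of the 17 was called between genotypes over all treatments, where 4 of them and 18.9% of all genes had an unadjusted p under 0.05. Of the 17, 13 were above 0, with a median log2 difference of 0.03 against 9e-04 over all genes tested.

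Of 10 glucocorticoid target genes, 3 were called for lithium against vehicle with genotypes pooled, beside the same 13.3% of all genes. Ddit4, an mTOR inhibitor that glucocorticoid and stress induce, fell by 0.40 (SE 0.06, limma, adjusted p = 4.56e-05), and it fell in HT and in WT taken alone (adjusted p = 0.0142 and 0.00603). Zbtb16, a zinc finger factor, rose by 0.53 (SE 0.11, adjusted p = 0.00158), and Sult1a1, a sulfotransferase, fell by 0.54 (SE 0.17, adjusted p = 0.0291). Zbtb16 also rose with fluoxetine, by 0.54 (adjusted p = 0.00303). Between genotypes, Tsc22d3, which encodes the glucocorticoid-induced leucine zipper, was lower in HT by 0.30 (SE 0.07, adjusted p = 0.00572). All 10 targets were below 0 there, with a median log2 difference of -0.14 against 9e-04 over all genes tested. With lithium, 1 called target thus rose and 2 fell. Of all 10 targets, 2 were above 0 with lithium. Their median log2 difference was -0.15, against -0.001 over all genes tested. Their part in the differences of Per2, Clock and Arntl was not tested.

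Females and males differed within 1 arm. This comparison was chosen after the data were examined. In WT fluoxetine, Nr1d1 was at 3651, 4249, 3580.2, 3653 and 3576 normalized counts in the females numbered 1 to 5 and at 2984, 2669, 2952, 2385 and 2596 in the males. All females were above all males. The log2 difference was 0.46 (SE 0.10, limma, adjusted p = 0.00250). Dbp was at 2503, 3008, 2053, 1764 and 2045 in the females and at 1899.5, 1642, 1861, 1551 and 1708 in the males, and 1 female lay within the male range. Its log2 difference was 0.37 (SE 0.11, adjusted p = 0.0200), which was lost without the female numbered 1 or 2 or the male numbered 2 or 4 and with only this arm in the fit (adjusted p = 0.0576). Between the sexes of this arm 10.6% of all genes were called. In the other arms limma called 0 members and 0.06% of all genes in HT vehicle, 0.072% in HT fluoxetine, 0.066% in HT lithium, 0.102% in WT vehicle and 0.054% in WT lithium. In that order, 0, 2, 2, 1 and 0 members had an unadjusted p under 0.05, beside 2.55%, 9.68%, 8.68%, 17.8% and 2.03% of all genes. The overlapping genes Thra and Sphk2 were at -0.08 each (adjusted p = 0.633 and 0.538).

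Marker sums differed between the same libraries. The 4 olfactory bulb genes summed to 3041 to 7458 normalized counts in the males and 416 to 1147 in the females, and the 10 glucocorticoid targets to 12552 to 13685 and 9367 to 10760. The 5 astrocyte genes summed to 37182 to 42889.5 in the males and 30013 to 36477 in the females, and the 6 immediate early genes to 8414 to 13006 and 18382 to 22622. None of these ranges overlapped, no olfactory bulb gene was at 0 in any library, and their part in the Nr1d1 and Dbp differences was not tested. The sex difference of the fluoxetine effect in WT was 0.44 for Nr1d1 (SE 0.14, adjusted p = 0.0715) and 0.45 for Dbp (SE 0.16, adjusted p = 0.0993), where 2.53% of all genes were called. The sex difference of the genotype effect under fluoxetine was -0.44 for Nr1d1 (SE 0.13, adjusted p = 0.0624), where 1.79% were called.

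The covariation of the members between libraries was measured on log2 values with the mean of each of the 12 groups of genotype, drug and sex removed. Of the 45 pairs, 21 had an adjusted p under 0.05 from 100000 permutations within groups, 18 positive and 3 negative. Of these 21, 16 had the same sign in all 6 arms, 2 of them negative, and 20 passed by Spearman's rho as well. By rho, 25 of the 45 pairs passed. Leaving out single libraries gave 17 to 26 such pairs. Cry2, Nr1d2 and Tef entered 6 of the 21 pairs each, and Arntl, Nr1d1 and Dbp 2 each. How far a member correlates with any gene differed between members. The middle 90% of r with all other genes tested ran from -0.26 to 0.25 for Arntl, from -0.49 to 0.60 for Clock, from -0.44 to 0.44 for Cry2 and from -0.40 to 0.41 for Tef. Of the 21 pairs, 15 lay outside that range of both members and 4 outside that of 1 member. These pairs had been picked for a large r, the smallest being 0.34 for Per2 and Nr1d2. For members with a narrow range, such as Arntl, lying outside it thus followed from passing. The count is a description and not a further test. Clock with Cry2 (0.35) and Clock with Tef (0.37) lay inside both, so these passing pairs were no closer than many pairs with other genes.

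**Figure D3:**
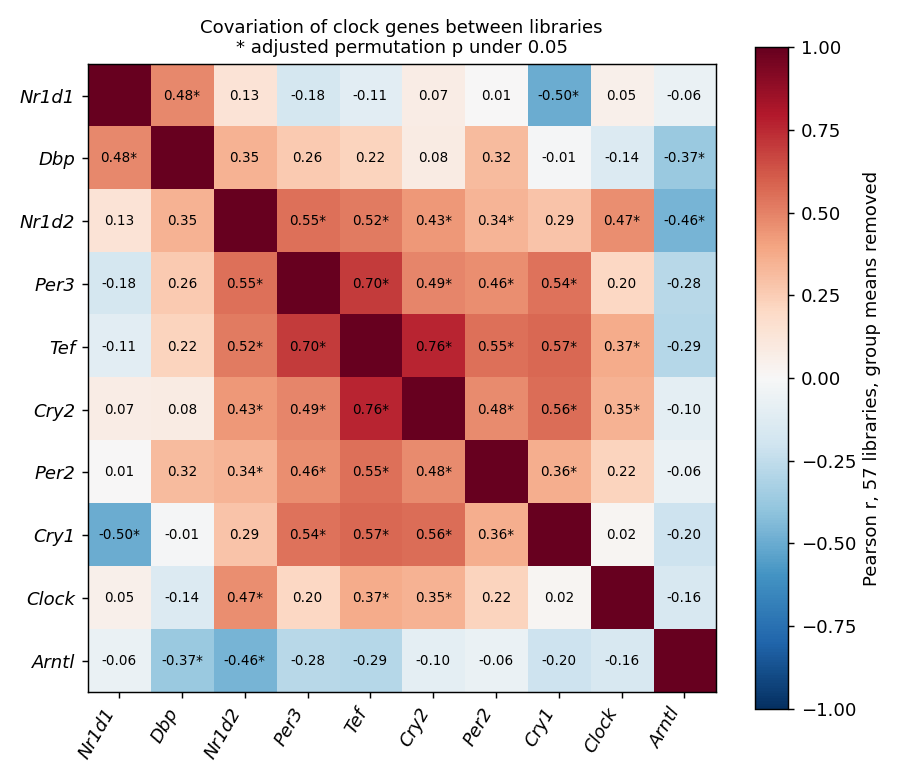
Pearson correlations between the clock genes over 57 libraries after removal of group means, from -1 in blue to 1 in red; stars mark adjusted permutation p under 0.05. Per2, Per3, Cry1, Cry2, Nr1d2 and Tef are positive with each other, and these pairs are starred except Cry1 with Nr1d2 (0.29). Nr1d1 pairs with Dbp (0.48). The negative stars are Cry1 with Nr1d1 (-0.50), Arntl with Nr1d2 (-0.46) and Arntl with Dbp (-0.37).

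The 2 highest correlations were those of Tef with Cry2 and with Per3, while Per3 and Cry2 correlated at 0.49. The value for Per3 and Cry2 was 0.32 without the HT fluoxetine male numbered 3. It was 0.28 without both libraries that stood apart, and -0.25 within WT lithium. Cry2 and Tef correlated at r = 0.76 and rho = 0.69 (permutation p = 1e-05 for each, the smallest possible, adjusted p = 0.000225 for each), and r was 0.68 without the 2 libraries of most extreme Cry2. Within arms it ran from 0.14 in WT lithium to 0.93 in HT fluoxetine. Per3 and Tef correlated at r = 0.70 and rho = 0.65 (adjusted p = 0.000225 for each). That pair was positive in every arm, from 0.61 in WT lithium to 0.81 in WT vehicle, and r was 0.61 without the 2 libraries of most extreme Per3. Of the 16658 other genes tested, Tef was the most alike to Per3 and the second most alike to Cry2. Among the genes most alike to Tef, Hlf, the remaining PAR bZIP factor, was at rank 2 (r = 0.78), Cry2 at rank 3 and Per3 at rank 9. These ranks are a description over 57 libraries.

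The Per and Cry repressors were positively related to Tef and to each other. Per2 correlated with Tef at r = 0.55 and rho = 0.61 (adjusted p = 0.00231 and 0.000225), positive in 6 of 6 arms. Per2 and Per3 correlated at r = 0.46 and rho = 0.51 (adjusted p = 0.00634 and 0.00208), also in 6 of 6 arms. Cry1 and Cry2 correlated at r = 0.56 (adjusted p = 0.0440) but at rho = 0.29 (adjusted p = 0.0885). Without the HT fluoxetine male numbered 3 that r was 0.22, so the relation of Cry1 and Cry2 rested on 1 library. Per3 and Cry1 kept r = 0.41 without that library and the WT vehicle male numbered 2, from 0.54 with them.

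The 3 negative pairs held an activator or Cry1 on one side and a REV-ERB receptor or Dbp on the other. Cry1 and Nr1d1 correlated at r = -0.50 and rho = -0.53 (permutation p = 0.00024, adjusted p = 0.0021 and 0.000525). The sign was negative in 6 of 6 arms, from -0.72 in HT fluoxetine to -0.27 in WT lithium, and r was -0.47 without both libraries that stood apart. Among 16658 genes Cry1 was at rank 16643 of likeness to Nr1d1. Arntl and Nr1d2 correlated at r = -0.46 and rho = -0.45 (permutation p = 0.00109, adjusted p = 0.00446 and 0.00813), negative in 6 of 6 arms, and at -0.45 without both libraries. Nr1d2 was at rank 16655 of likeness to Arntl. Arntl and Dbp correlated at r = -0.37 and rho = -0.35 (adjusted p = 0.0440 and 0.0409), with the negative sign in 4 of 6 arms. That r was -0.46 without both libraries. Without the HT fluoxetine male numbered 3 alone, 6 negative pairs passed. Arntl then had r = -0.40 with Cry1, -0.38 with Tef and -0.36 with Per3. With all libraries these were -0.20, -0.29 and -0.28 and did not pass. Arntl and Tef did pass by rank with all libraries (rho = -0.34, adjusted p = 0.044).

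Several other pairs that the loop joins did not pass by Pearson r. Arntl and Clock, whose proteins act as a pair, had r = -0.16 (adjusted p = 0.527), and r was 0.01 without the WT vehicle male numbered 2. Arntl and Nr1d1 had r = -0.06 (adjusted p = 0.755). Nr1d1 and Nr1d2, the paralogous receptors, had r = 0.13 (adjusted p = 0.527). Nr1d1 and Dbp did pass and correlated at r = 0.48 and rho = 0.43 (adjusted p = 0.00446 and 0.00970), positive in 5 of 6 arms, and r was 0.43 without the 2 libraries of most extreme Nr1d1. Dbp and Tef, which bind the same element, had r = 0.22 (adjusted p = 0.208). By rank they passed, at rho = 0.32 (adjusted p = 0.0463), and r was 0.46 without both libraries that stood apart. Per3, whose window held D-boxes, and Dbp had r = 0.26 (adjusted p = 0.185), positive in 4 of 6 arms. By rank that pair had rho = 0.36 (adjusted p = 0.0383). By r, Arntl was thus negative with Nr1d2 and Dbp, while its relation to Nr1d1 did not pass.

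**Figure D4:**
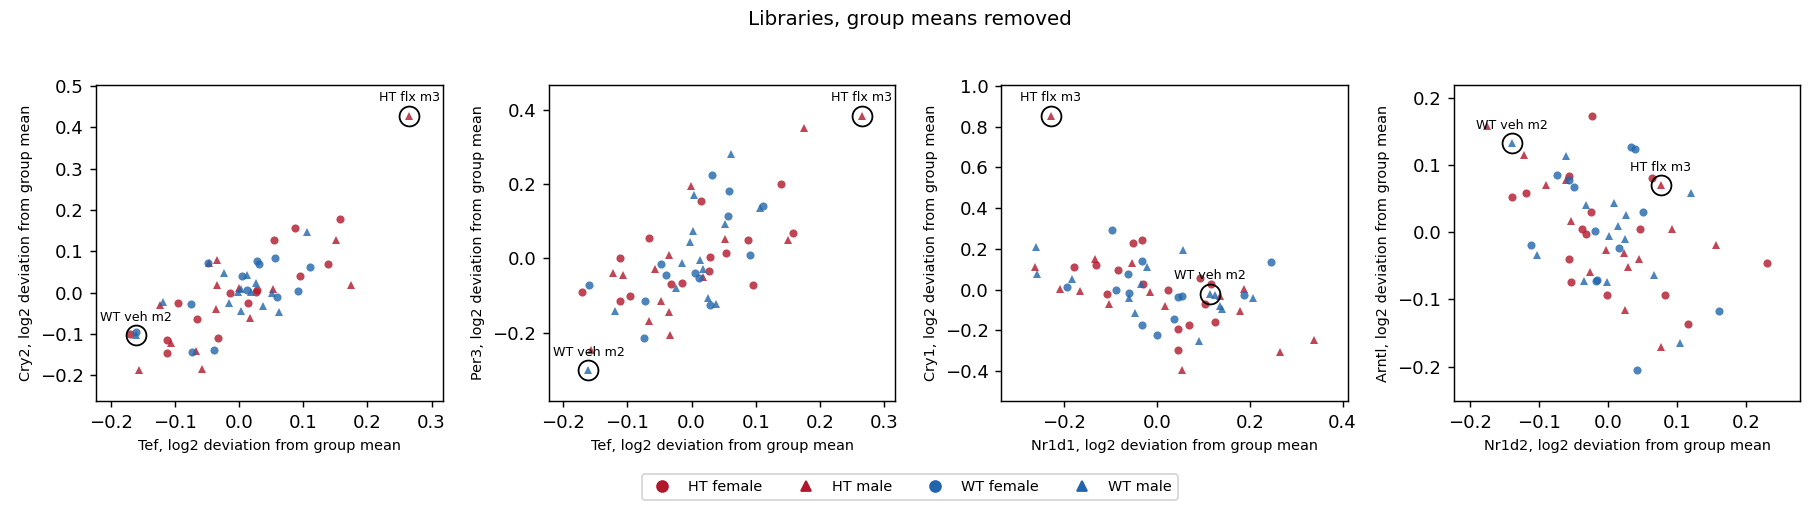
Deviation of each library from its group mean on the log2 scale for 4 pairs of clock genes, red for HT, blue for WT, circles for females and triangles for males; circled points are the HT fluoxetine male 3 (HT flx m3) and the WT vehicle male 2 (WT veh m2). Tef rises with Cry2 (r = 0.76) and Per3 (r = 0.70), Cry1 falls with Nr1d1 (r = -0.50) and Arntl falls with Nr1d2 (r = -0.46), also without the circled libraries.

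Clock related to Nr1d2 at r = 0.47 and rho = 0.44 (adjusted p = 0.00634 and 0.00813), inside the middle 90% of all genes for Clock and outside it for Nr1d2 (-0.38 to 0.38). Both genes also moved with the length trend, Nr1d2 at r = 0.52 (adjusted p = 0.0102) and rho = 0.45 (adjusted p = 0.0546). With the trend removed, Clock and Nr1d2 correlated at 0.14, while Arntl and Nr1d2 stayed at -0.46, Cry1 and Nr1d1 at -0.50, and Cry2 and Tef at 0.75. No other relation passed among the 120 of the members with the trend and the summed levels of the marker lists.

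Of the 90 ordered pairs of members, 13 had the second gene among the 100 genes, out of 16658, most alike to the first. The same correlation could count in both directions, as it did for Per3 and Tef. Beside Hlf, further clock genes among those 100 included Ciart, a repressor of the CLOCK and ARNTL pair, at rank 12 for Dbp (r = 0.55) and rank 44 for Nr1d2 (r = 0.56) and rank 53 for Nr1d1 (r = 0.47). Bhlhe40 was at rank 35 for Per2 (r = 0.57). For Dbp the genes of highest r were Tubg1 (0.64), Ldb3 (0.63), Arl8a (0.63), Anxa7 (0.61), Ppp2r5b (0.60), Syn1 (0.58), Map7d1 (0.58) and Wdr81 (0.56), and among those of lowest r were Sepsecs (-0.57), Crtc3 (-0.54) and Tardbp (-0.53). For Arntl they were Pstk (0.58), Il11ra1 (0.53), AC166172.4 (0.52), Fam122a (0.50), Mrpl36 (0.47), Bphl (0.47), Aldh3a1 (0.47) and C530025M09Rik (0.47) at the high end. Pwwp2b (-0.49), Traf6 (-0.47), Crybg3 (-0.47) and Nr1d2 (-0.46) stood at the low end.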

How the data were processed

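Prefrontal cortex RNA was sequenced as 57 TruSeq Stranded mRNA libraries, per the labels' protocols. Salmon 0.11.2, R 3.6.0, DESeq2 1.19.11 and GRCm38 are named in the submitters' processing notes. The annotation release, filters and strand setting are stated in none of the sources used here. The deposited table holds a normalized signal, estimated counts already scaled between libraries by the authors, so read depth is unknown and whole reads could not be recovered. No column was left unmatched, and no 2 libraries held identical values.

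The members and lists were chosen with earlier results of these data known. Values were tested as log2(value + 1) with limma 3.58.1 (trend and robust moderation, R 4.3.3), over the 16659 genes with a mean of at least 10, in 1 fit of 12 groups of genotype, drug and sex. Effects were averaged over the sexes, and p-values were Benjamini-Hochberg adjusted over all genes tested, with a threshold of 0.05. The pseudocount makes log2 differences of low genes too small. Correlations used 100000 permutations within groups (10000 when a library was left out), adjusted over 45 pairs, with Python 3.11.15, numpy 2.4.6 and scipy 1.17.1. The fitting was tested on simulated data. Promoter windows came from RefSeq.

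The text names Shank2, the 10 members, called genes of the lists of other clock genes and glucocorticoid targets, and, for Dbp and Arntl, the 8 genes of highest and 4 of lowest correlation. One of these genes is not reported here. The sexes within each arm, and the fit without both libraries that stood apart, were added after the data were examined. Alternatives were another pseudocount, filter, scaling (TMM factors or quantiles), moderation, weights, terms or set of groups, and each library left out. Replicate numbers were not treated as pairs in the main fit.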

Additional observations from a re-analysis of the deposited data

Results flagged for a closer look

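In 120 tests of the 10 members in the 12 groups, 8 libraries' values stood far from the others of their group by Dixon's test, which chance does in about 1 in 20 groups. The HT fluoxetine male numbered 3 held 4 of them. There Per3 was at 2220 normalized counts, against 1513 to 1668 in the other males of that group. Cry1 was at 785 against 329 to 413, Cry2 at 6712 against 4394 to 5050.2, and Tef at 12061 against 9320 to 9795.

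The other values were spread over 4 libraries. Per3 was lowest in the WT vehicle male numbered 2, at 1192 against 1545 to 1612. Nr1d1 was highest in the WT fluoxetine female numbered 2, at 4249 against 3576 to 3653. Nr1d2 was highest in the HT fluoxetine female numbered 4, at 3685 against 2892 to 3086. Tef was lowest in the WT lithium male numbered 2, at 9060 against 9923 to 10268.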

How the results depend on the processing

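The number of members called was the same in every comparison under TMM factors, quantile normalization, a pseudocount of 5 and moderation without trend. With all genes above 0 tested, it differed for any difference among arms alone (2, without Dbp). With 2 principal components as terms, it was 1 for HT against WT under vehicle (Clock), 1 for fluoxetine in HT (Dbp), 1 for lithium in HT (Per2), 2 for lithium in WT (Clock and Per2), 2 for fluoxetine pooled (Arntl and Dbp) and 4 for any difference among arms. With library quality weights it was 1 for fluoxetine in HT (Dbp), 2 for fluoxetine pooled (Arntl and Dbp), 4 between the sexes in WT fluoxetine (Clock, Cry2, Nr1d1 and Dbp) and 5 for any difference among arms. With the length trend as a term it was 1 for fluoxetine in HT (Clock), 0 for lithium in WT and 0 for lithium pooled, where the Clock difference turned to -0.0124 (adjusted p = 0.907). With only the compared groups in the fit it was 1 for fluoxetine in HT (Dbp), 0 for lithium in WT and 3 between the sexes in WT fluoxetine (Clock, Cry2 and Nr1d1). Without both libraries that stood apart it was 1 for fluoxetine pooled (Dbp). The share of all genes called under each of these settings is not given here. These counts therefore do not show whether a change was particular to the members. The cause was not tested.

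Leaving out 1 library gave 0 to 1 members for HT against WT under vehicle, 0 to 1 for lithium in WT, 0 to 1 for fluoxetine pooled, 1 to 2 between the sexes in WT fluoxetine, 2 to 4 for any difference among arms, and 17 to 26 passing pairs of members. Without the HT fluoxetine male numbered 3, 26 pairs passed, 6 of them negative. Without both libraries that stood apart, 28 pairs passed. Libraries with the same replicate number had a median correlation of -0.0078 and others of 0.0006. A median cannot exclude that the numbers mark a pairing in part of the groups. In WT vehicle females the numbers of the titles, used here, differ in part from those of the library names. With the replicate block the number of members called did not move in any comparison, and 20 pairs passed. Read depth is unknown, so counting error could not be given.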
